A study of Mus musculus with 46 samples.

Results

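Expression of 10 oligodendrocyte precursor genes (Gpr17, Pdgfra, Cspg4, Olig1, Olig2, Neu4, Lhfpl3, Vcan, Tnr and Sox6) was followed in mouse BNST (bed nucleus of the stria terminalis) after chronic intermittent ethanol (CIE). Members were every probeset of the array, a set of short oligonucleotides that together report 1 transcript, that the platform annotation gave the symbol of 1 of these genes and no other. They came to 23 of 45037 probesets and covered 9 of the 10 genes: 8 for Vcan, 4 for Sox6, 3 for Pdgfra, 2 each for Cspg4 and Lhfpl3, and 1 each for Gpr17, Olig1, Olig2 and Tnr. No probeset carried the symbol Neu4, so this sialidase gene is not analysed here. The probeset with the highest mean stood for its gene as its representative.

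The BNST is a forebrain nucleus of the extended amygdala linked to anxiety and to the aversive state of alcohol withdrawal. Oligodendrocyte precursor cells, or NG2 glia, are the dividing cells of the adult brain that generate myelinating oligodendrocytes. They carry the PDGF receptor encoded by Pdgfra and the NG2 proteoglycan encoded by Cspg4. Some of them leave the cycle, pass through a short committed stage that is marked by the orphan receptor Gpr17, shut Gpr17 off and begin to make myelin. Olig1, Olig2 and Sox6 encode transcription factors of the lineage, and Vcan and Tnr encode extracellular matrix proteins.

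All animals were adult male C57BL/6J mice, each hybridised to its own Affymetrix whole-genome mouse array, 46 in all. CIE mice (n = 22) went through 4 cycles of 4 days of ethanol vapor, 16 h a day at 10 to 13 mg per l of air, with 7 days of abstinence between cycles, and received ethanol at 1.6 g/kg together with pyrazole, an inhibitor of alcohol dehydrogenase, at 1 mmol/kg. Ctrl mice (n = 24) breathed air and received saline with the same pyrazole, so that every group carried the inhibitor. Once the last session had ended, BNST was taken at once (0 h) or at 8 h, 72 h or 7 d, from 6 mice per group, except for the CIE group at 7 d, which had 4. The groups are named below by treatment and time. Each mouse was sampled once, so time was compared between animals.

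Values are the deposited log2 intensities, and differences are on the log2 scale. Array medians lay between 6.78 and 6.83, which the quantile normalization of all arrays sets, and no pair of arrays held identical values. The number of mice limits the precision. Probeset signals depend on their oligonucleotides, so a probeset's level is not read as higher or lower expression than that of another gene. Where Gpr17 is set against the mean of other members on each array, only differences between groups are read. All 9 representatives and 14 of the 23 probesets had a mean above the median of all probesets. A probeset is said to have risen or fallen where limma, fitted to all 45037 probesets on all 46 arrays, gave a Benjamini-Hochberg adjusted p of 0.01 or less. In dissected tissue, fewer cells of a type and less RNA per cell cannot be told apart.

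Gpr17, the receptor of committed precursors, was the only member called for CIE, and it was lower at 8 h and at 72 h. In Ctrl mice the single Gpr17 probeset (1456833_at) ran from 8.88 to 9.25 at 0 h with a median of 9.11. Ctrl values were 9.40 to 9.58 at 8 h (median 9.46), 9.89 to 10.07 at 72 h (median 9.96) and 9.63 to 9.86 at 7 d (median 9.73). The 4 Ctrl groups followed each other without overlap, in the order 0 h, 8 h, 7 d and 72 h.

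In CIE mice Gpr17 ran from 8.59 to 9.11 at 0 h (median 8.99) and from 8.53 to 9.21 at 8 h (median 9.02). It ran from 9.32 to 9.56 at 72 h (median 9.51), and the 4 mice at 7 d read 9.78, 9.75, 9.73 and 9.53. The CIE groups at 0 h and 8 h thus covered nearly the same range, and the 72 h group lay above both. All 6 CIE mice were below all 6 Ctrl mice at 8 h and again at 72 h, while the treatments overlapped at 0 h and at 7 d.

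**Figure D1:**
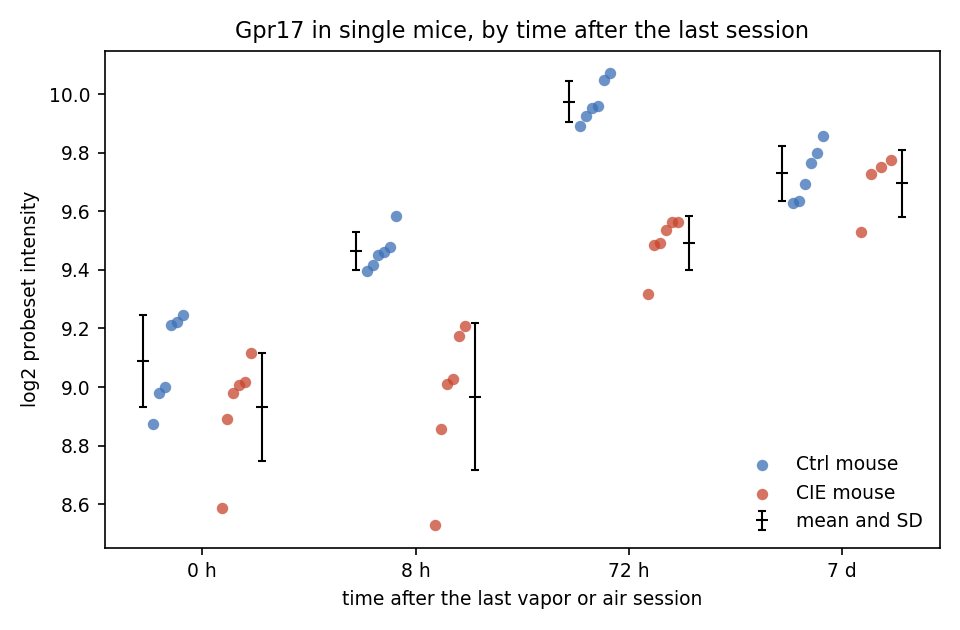
Log2 intensity of the Gpr17 probeset (y axis) in each mouse by time after the last session (x axis), with Ctrl mice in blue and CIE mice in red, and the mean and SD of each group beside its points. The 6 CIE mice lie below the 6 Ctrl mice at 8 h and at 72 h, and the groups overlap at 0 h and at 7 d.

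Group means for Gpr17 at 0 h were 9.09 ± 0.157 in Ctrl and 8.93 ± 0.184 in CIE mice (SD, n = 6 each), a CIE minus Ctrl difference of -0.16 (95% confidence interval -0.32 to 0.01) that did not pass the test (limma adjusted p = 0.332). At 8 h the means were 9.46 ± 0.066 and 8.97 ± 0.250 (SD, n = 6 each), and Gpr17 fell by 0.50 (SE 0.081; 1.41-fold lower; limma adjusted p = 0.000192). At 72 h they were 9.97 ± 0.071 and 9.49 ± 0.092 (SD, n = 6 each), and the receptor fell by 0.48 (SE 0.081; 1.40-fold lower; limma adjusted p = 0.00143). At 7 d the 2 treatments differed by -0.03 (interval -0.22 to 0.15; limma adjusted p = 1.00). The fall at 8 h depended on the spread shared by all 8 groups: with only the 12 arrays of that time in the fit the difference stayed at -0.50 but the limma adjusted p was 0.0517. At 72 h the same restriction gave a limma adjusted p of 0.00120. Leaving out each mouse in turn kept both falls past the threshold, with differences of -0.55 to -0.41 at 8 h and -0.50 to -0.45 at 72 h.

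Whether the CIE effect on Gpr17 itself changed with time was less certain. The effect was more negative than at 0 h by 0.34 at 8 h (change -0.34, limma adjusted p = 0.322) and by 0.32 at 72 h (change -0.32, limma adjusted p = 0.138). Between 8 h and 72 h it moved by 0.02, with an interval of -0.22 to 0.25. From 8 h to 7 d it moved by 0.46 (SE 0.12, limma adjusted p = 0.0848). The F test of any change among the 4 effects gave a limma adjusted p of 0.0234, short of the threshold. Leaving out each mouse in turn gave a limma adjusted p of 0.00542 to 0.0482. Only the fit without CIE 0 h replicate 19 passed, the mouse with the lowest Gpr17 value of its group. The F test over the 4 CIE effects together passed (limma adjusted p = 2.65e-06).

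The level of Gpr17 also differed between collection times within each treatment. Against Ctrl mice at 0 h, it rose by 0.37 at 8 h (limma adjusted p = 0.00718), by 0.88 at 72 h (1.85-fold; limma adjusted p = 9.71e-10) and by 0.64 at 7 d (limma adjusted p = 1.02e-06). Against CIE mice at 0 h, the difference was 0.04 at 8 h (limma adjusted p = 0.871), and the gene rose by 0.56 at 72 h (limma adjusted p = 3.13e-06) and by 0.76 at 7 d (limma adjusted p = 9.39e-08). The 3 contrasts of each treatment share its 0 h mice. Time since the last session and any other difference between collection times cannot be told apart for the Ctrl groups, which never received ethanol.

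Set against the other representatives, Gpr17 stood apart in the size of its CIE minus Ctrl difference at 8 h and at 72 h. Among the other probesets, Vcan 1421694_a_at differed by -0.40 at 72 h, and Lhfpl3 1429592_at by -0.36 at 72 h and -0.49 at 7 d, none called. The mean over the 8 other representatives, an average that varies less than single genes, lay between 9.80 and 9.94 in all 8 groups. It was not level at 72 h, where it was 9.94 (range 9.90 to 10.01) in Ctrl mice. In CIE mice at 72 h it was 9.80 (range 9.69 to 9.88), below every Ctrl mouse. At 8 h it was 9.80 (range 9.72 to 9.87) in Ctrl and 9.82 (range 9.71 to 9.93) in CIE mice. Gpr17 minus that mean, a difference within each array that is free of overall array level, was -0.33 (range -0.38 to -0.29) in Ctrl and -0.86 (range -1.18 to -0.62) in CIE mice at 8 h. At 72 h it was 0.04 (range -0.04 to 0.14) in Ctrl and -0.31 (range -0.43 to -0.15) in CIE mice. The ranges of the treatments did not overlap at either time. This uses the same Gpr17 values that were called at 8 h and 72 h, so it is not separate evidence. The share of all genes without overlap in such a difference is not given here. At 7 d the group means were -0.09 in Ctrl and -0.13 in CIE mice, and at 0 h they were -0.73 and -0.88.

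Across all 23 probesets, the number called for CIE against Ctrl was 0 at 0 h, where 2.40% of all probesets passed, and 0 at 7 d, where 0% did. It was 1 at 8 h (4.35% of members against 0.557% of all probesets) and 1 at 72 h (4.35% against 0.433%), Gpr17 both times. At an unadjusted p under 0.05 the limma fit gave 4, 2, 8 and 1 of the 23 probesets at 0 h, 8 h, 72 h and 7 d, where 16.5%, 10.5%, 12.6% and 4.94% of all probesets passed. The F test over the 4 effects called 1 member, against 2.84% of all probesets. The F test of a change in the effect called 0, against 1.04%, and 6 members passed at an unadjusted p under 0.05, against 13.8%. No member was called for the single changes in effect, for which the background was 0.0799% from 0 h to 8 h, 0.988% from 0 h to 72 h, 0.515% from 8 h to 72 h and 0.153% from 8 h to 7 d; at an unadjusted p under 0.05 the counts were 1, 4, 4 and 1, with backgrounds of 7.26%, 13.4%, 12.0% and 8.86%.

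At 72 h most members leaned the same way as Gpr17 without passing the test. All 9 representatives and 20 of 23 probesets had a lower mean in CIE than in Ctrl mice. The median difference was -0.22 over the 9 representatives, against -0.0036 over the representatives of all 18193 genes measured. Further precursor genes outside the members, taken up below, did not share this lean at 72 h. Of 22 measured, 13 were lower and 9 higher in CIE mice, with a median of -0.04. The groups did not overlap for 3 probesets (Gpr17, Olig1 and Sox6 1434918_at), all lower in CIE mice, or 13.0% of members where 2.90% of all probesets did not overlap. At 8 h this held for 1 (Gpr17; background 1.10%), and for 0 at 0 h (background 2.50%) and 0 at 7 d (background 1.12%).

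**Figure D2:**
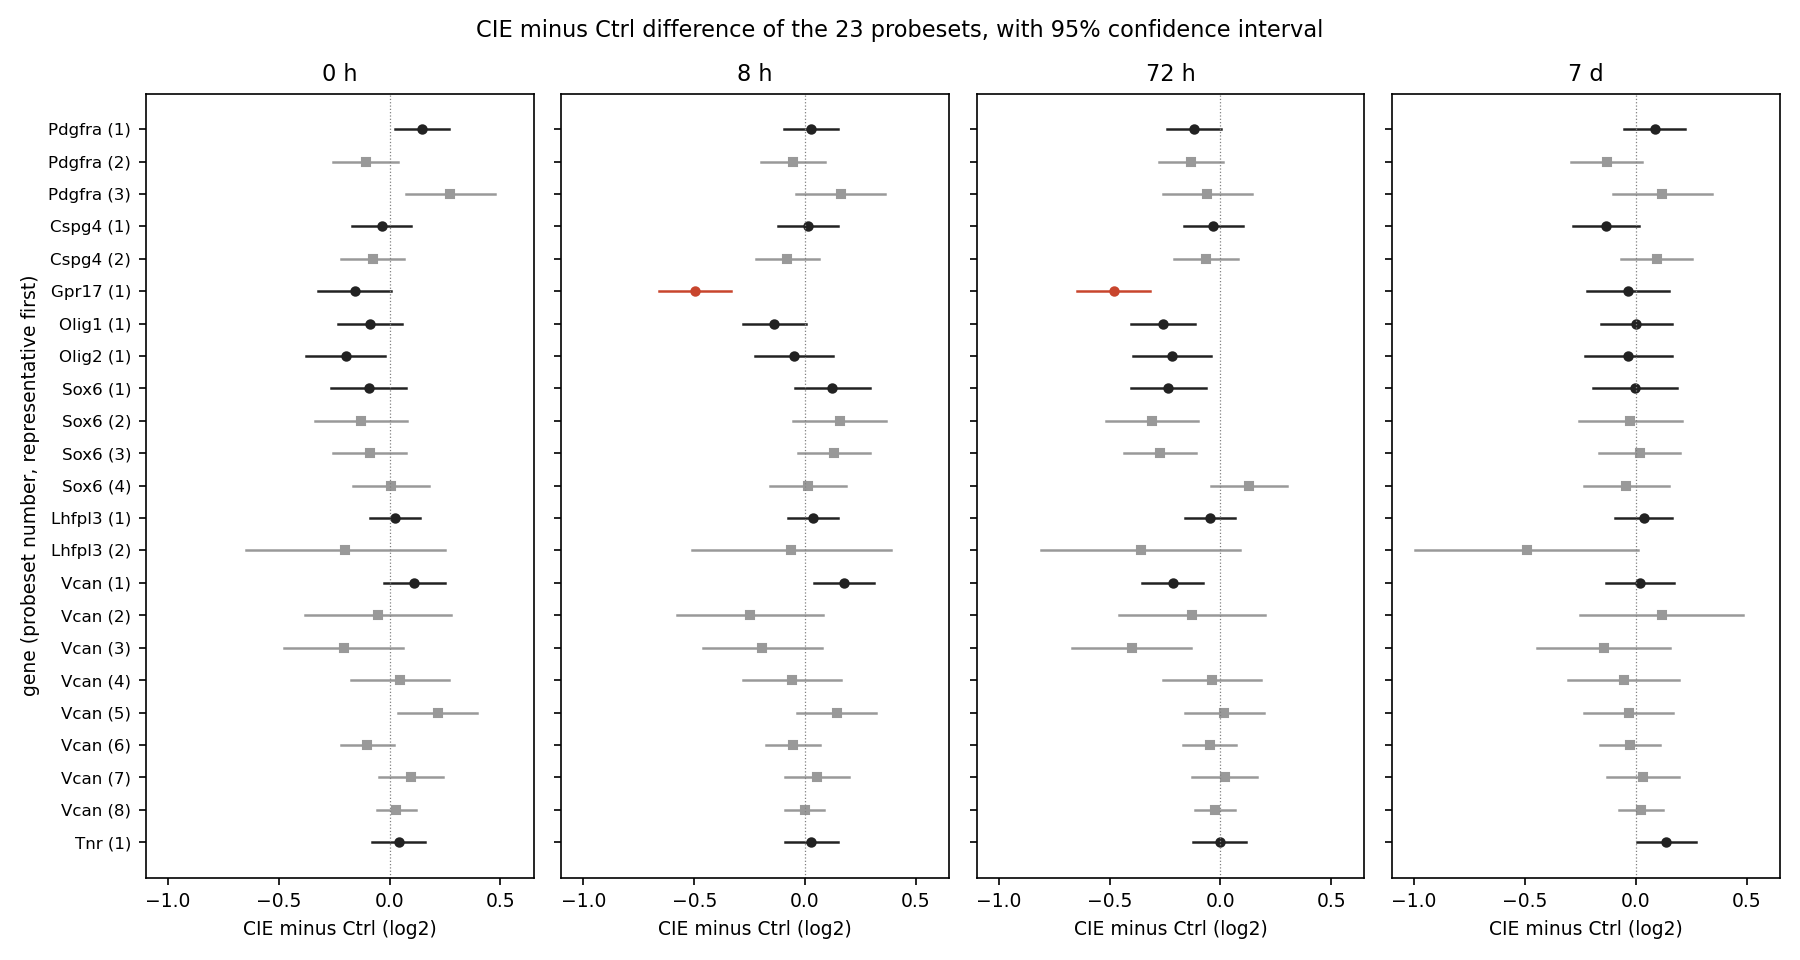
CIE minus Ctrl difference in log2 intensity (x axis) of each of the 23 probesets (y axis) at 0 h, 8 h, 72 h and 7 d, with 95% confidence intervals. Circles are representatives, squares are other probesets of the gene, and red marks those called; Gpr17 is called at 8 h and 72 h, and at 72 h 20 of 23 points lie below 0.

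Olig1, a basic helix-loop-helix factor kept through the lineage into mature oligodendrocytes, came nearest to the threshold after Gpr17 in the CIE minus Ctrl contrasts. At 72 h it ran from 12.32 to 12.56 in Ctrl (median 12.43) and from 12.08 to 12.27 in CIE mice (median 12.21). No CIE mouse reached the lowest Ctrl mouse. The difference was -0.26 (SE 0.071, limma adjusted p = 0.0444). Leaving out each mouse in turn gave a limma adjusted p of 0.00865 to 0.125, the highest without CIE 72 h replicate 3. Only the fit without Ctrl 0 h replicate 48 passed the threshold, the mouse whose Olig1 value of 11.95 was the lowest of all. At 0 h and 8 h Olig1 differed by -0.09 (limma adjusted p = 0.606) and -0.14 (limma adjusted p = 0.502), and at 7 d by 0.0034.

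Olig2, the related factor that specifies the lineage, ran at 72 h from 9.63 to 9.93 in Ctrl and from 9.34 to 9.67 in CIE mice, with medians of 9.76 and 9.56. In 5 of 6 CIE mice it was below every Ctrl mouse, and the difference was -0.22 (SE 0.087, limma adjusted p = 0.228). A difference of similar size at 0 h (-0.20, limma adjusted p = 0.220) lay over a wide Ctrl range of 9.31 to 10.02.

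Sox6, an SRY-box factor that holds precursors in their undifferentiated state, had 4 probesets. Its representative (1447655_x_at) ran at 72 h from 9.03 to 9.30 in Ctrl and from 8.69 to 9.10 in CIE mice, a difference of -0.24 (SE 0.084, limma adjusted p = 0.155). Probeset 1434918_at ran from 8.67 to 8.87 in Ctrl and from 8.30 to 8.60 in CIE mice, without overlap, and differed by -0.27 (SE 0.081, limma adjusted p = 0.0702). The third, 1427677_a_at, differed by -0.31 (limma adjusted p = 0.125). The fourth, 1426018_a_at, had the opposite sign, at 0.13 (limma adjusted p = 0.593). At 8 h the first 3 differed by 0.12, 0.13 and 0.16 (limma adjusted p of 0.691, 0.626 and 0.668) and the fourth by 0.01.

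Vcan, which encodes the chondroitin sulfate proteoglycan versican, differed in opposite directions at 8 h and 72 h on its representative, without a call. Its representative (1427256_at) ran at 8 h from 8.21 to 8.41 in Ctrl and from 8.27 to 8.81 in CIE mice. At 72 h it ran from 8.60 to 8.80 in Ctrl and from 8.28 to 8.72 in CIE mice. Thus 4 of 6 CIE mice were above all Ctrl mice at 8 h, and 5 of 6 were below all Ctrl mice at 72 h. The differences were 0.18 (limma adjusted p = 0.263) and -0.22 (SE 0.068, limma adjusted p = 0.0916), and the change between them was -0.39 (SE 0.096, limma adjusted p = 0.0230), short of the threshold. Of the 7 other Vcan probesets, 2 shared the representative's sign at 8 h (1447586_at and 1433044_at, at 0.14 and 0.06) and 5 did at 72 h. The rest had the opposite sign at 8 h, 1427257_at and 1421694_a_at by the most, at -0.25 and -0.19 (limma adjusted p of 0.669 and 0.692). At 72 h 1421694_a_at differed by -0.40 (SE 0.13, limma adjusted p = 0.118), 1427257_at by -0.13, 1433043_at by -0.05, 1459767_x_at by -0.04 and 1447887_x_at by -0.02, whereas 1447586_at and 1433044_at each differed by 0.02.

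Pdgfra, the receptor for the PDGF that drives precursors to divide, had 3 probesets, none called. The representative (1421917_at) ran at 0 h from 10.37 to 10.82 in Ctrl and from 10.64 to 10.83 in CIE mice, and differed by 0.14 (SE 0.060, limma adjusted p = 0.188). At 72 h it ran from 10.76 to 10.94 in Ctrl and from 10.60 to 10.87 in CIE mice, with 5 of 6 CIE mice below all Ctrl mice, and differed by -0.12 (SE 0.060, limma adjusted p = 0.403). The effect changed by -0.27 between these times (limma adjusted p = 0.0894). Another Pdgfra probeset, 1438946_at, differed by 0.27 at 0 h (limma adjusted p = 0.110) and 1421916_at by -0.11 (limma adjusted p = 0.499).

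Cspg4, Lhfpl3 and Tnr showed no called difference at any time. Cspg4, the NG2 core protein, which pericytes also make, had CIE minus Ctrl differences of -0.04, 0.01, -0.03 and -0.13 at 0 h, 8 h, 72 h and 7 d for its representative. The interval at 72 h was -0.17 to 0.10, and the second probeset, 1423341_at, differed by -0.08, -0.08, -0.06 and 0.09. Lhfpl3, a tetraspan membrane protein of the precursors, differed by 0.03, 0.03, -0.05 and 0.04 on its representative, with an interval at 72 h of -0.16 to 0.07. Its second probeset, 1429592_at, which varied more between mice, differed by -0.20, -0.06, -0.36 and -0.49, with an interval at 72 h of -0.81 to 0.09. Tnr, encoding the perineuronal net glycoprotein tenascin-R, which neurons also make, differed by 0.04, 0.03, -0.0024 and 0.14, with an interval at 72 h of -0.12 to 0.12. For the 3 representatives the interval at 72 h leaves out a fall as large as that of Gpr17, and for Lhfpl3 1429592_at it does not.

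**Figure D3:**
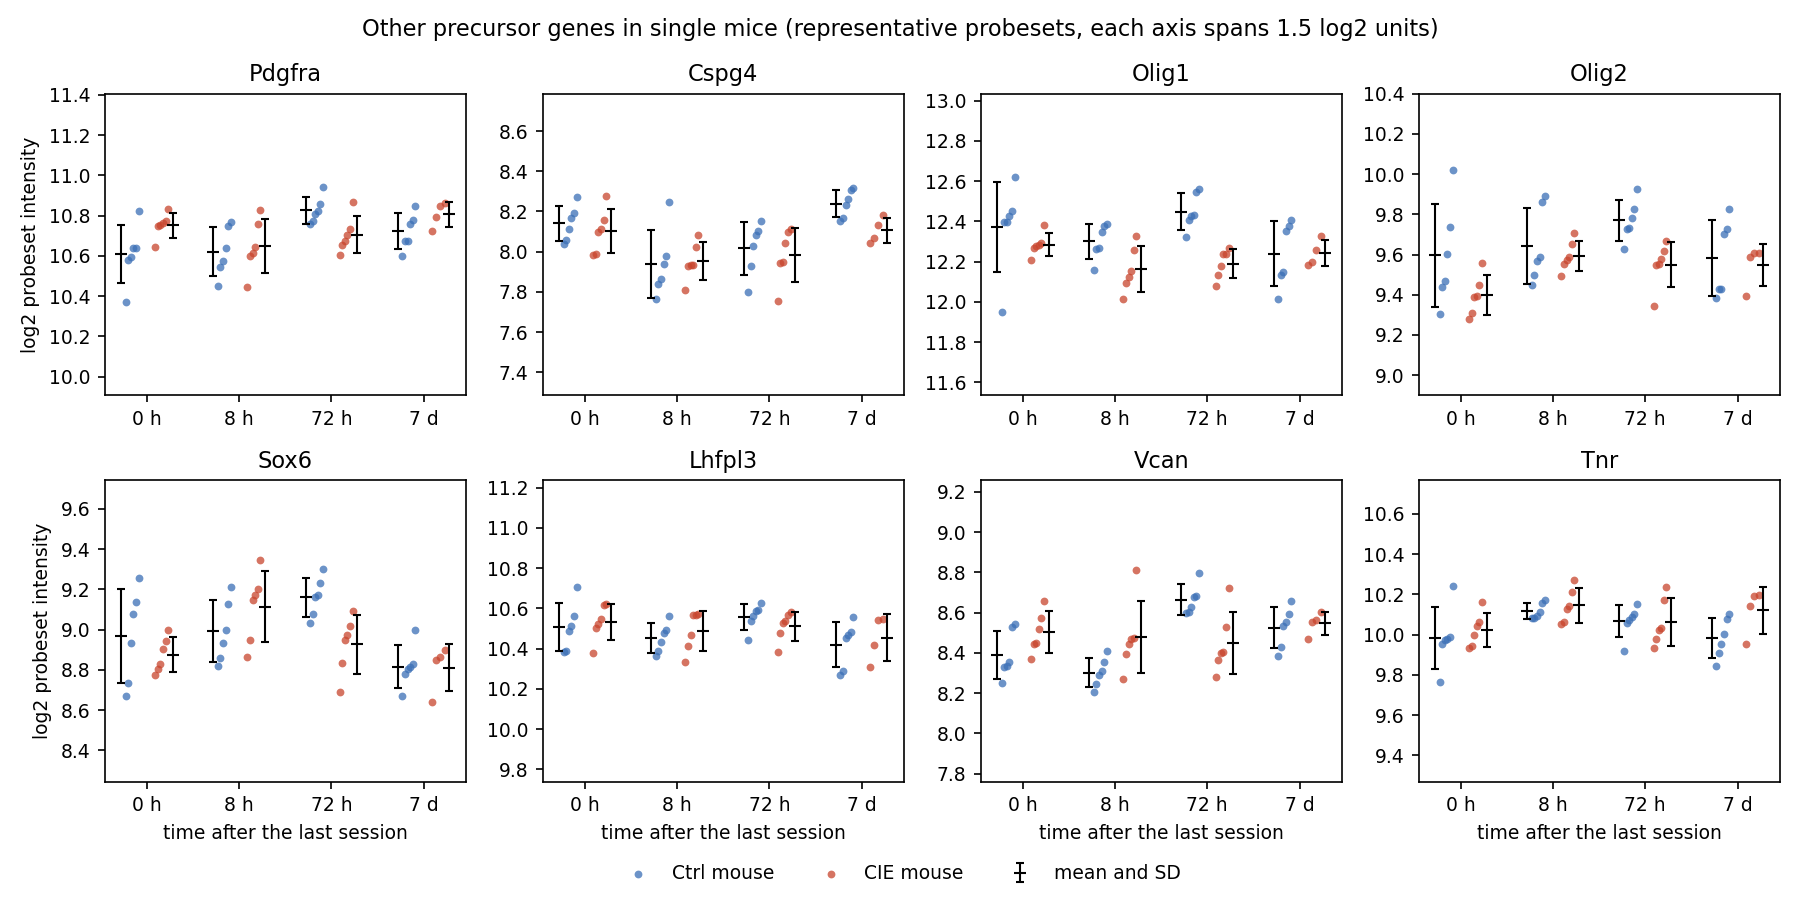
Log2 intensity (y axis, 1.5 log2 units in each panel) of the representative probesets of Pdgfra, Cspg4, Olig1, Olig2, Sox6, Lhfpl3, Vcan and Tnr in each mouse by time after the last session (x axis), with Ctrl in blue, CIE in red, and the mean and SD of each group. At 72 h all 6 CIE mice lie below the Ctrl mice for Olig1 and 5 of 6 do for Pdgfra, Olig2, Sox6 and Vcan, whereas Cspg4, Lhfpl3 and Tnr overlap.

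More members were called over collection time than for CIE. The F test over the 4 Ctrl groups called 5 of 23 probesets, or 21.7% against 10.9% of all probesets: Gpr17 (limma adjusted p = 1.58e-09), Lhfpl3 1429592_at (limma adjusted p = 8.62e-05), Vcan 1427256_at (limma adjusted p = 0.000637), Pdgfra 1421916_at (limma adjusted p = 0.00279) and Cspg4 1450944_at (limma adjusted p = 0.00346). This count was 9 without Ctrl 0 h replicate 48 and 3 without Ctrl 8 h replicate 58. The share of all probesets in those 2 fits is not given here. For CIE against Ctrl, calls over all probesets also rose without Ctrl 0 h replicate 48, from 195 to 375 at 72 h and from 251 to 290 at 8 h. Over the CIE groups the F test called 2, Gpr17 and Lhfpl3 1429592_at, or 8.70% against 7.76%. A member called in the Ctrl course and not in the CIE course is not thereby shown to differ between them; the change of the CIE effect is that test, and it called none.

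Against 0 h, the Ctrl contrasts called 2 members at 8 h (background 0.713%), 1 at 72 h (background 0.173%) and 1 at 7 d (background 2.23%). The CIE contrasts called 1 at each of 8 h, 72 h and 7 d (backgrounds 3.24%, 6.07% and 2.49%). Gpr17 accounted for all of these except a fall of Lhfpl3 1429592_at at 8 h, by 1.12 in Ctrl mice (SE 0.22, limma adjusted p = 0.00433) and by 0.98 in CIE mice (SE 0.22, limma adjusted p = 0.00365). That probeset ran from 7.93 to 9.04 in Ctrl mice at 0 h and from 6.60 to 7.73 at 8 h, and in CIE mice from 7.80 to 8.63 and from 6.68 to 7.51, so that the 2 times did not overlap in either treatment. The representative of Lhfpl3, 1433990_at, ran from 10.38 to 10.70 and from 10.36 to 10.56 in the same Ctrl mice. Vcan 1427256_at was highest in Ctrl mice at 72 h, at 8.67 ± 0.075, and lowest at 8 h, at 8.30 ± 0.072 (SD, n = 6 each). Cspg4 1450944_at was 8.14 ± 0.089 at 0 h, 7.94 ± 0.168 at 8 h, 8.02 ± 0.132 at 72 h and 8.24 ± 0.068 at 7 d in Ctrl mice (SD, n = 6 each).

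The members did not vary from mouse to mouse as 1 block. After each group's mean was removed, Pearson's r over the 46 arrays was computed for the 36 pairs of representatives, as a description; the arrays share hybridization and normalization. The median r was 0.23 and the range -0.27 to 0.70, with 11 pairs above 0.4 and 6 below 0. Olig1, Olig2, Sox6 and Vcan formed the closest set, with r of 0.70 for Sox6 and Vcan, 0.66 for Olig1 and Olig2, 0.66 for Olig1 and Sox6 and 0.61 for Olig1 and Vcan. Pdgfra lay nearest to Gpr17 (0.56) and Tnr (0.54) and was unrelated to Olig1 (0.03). Cspg4 had no r above 0.17 with any other member.

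**Figure D4:**
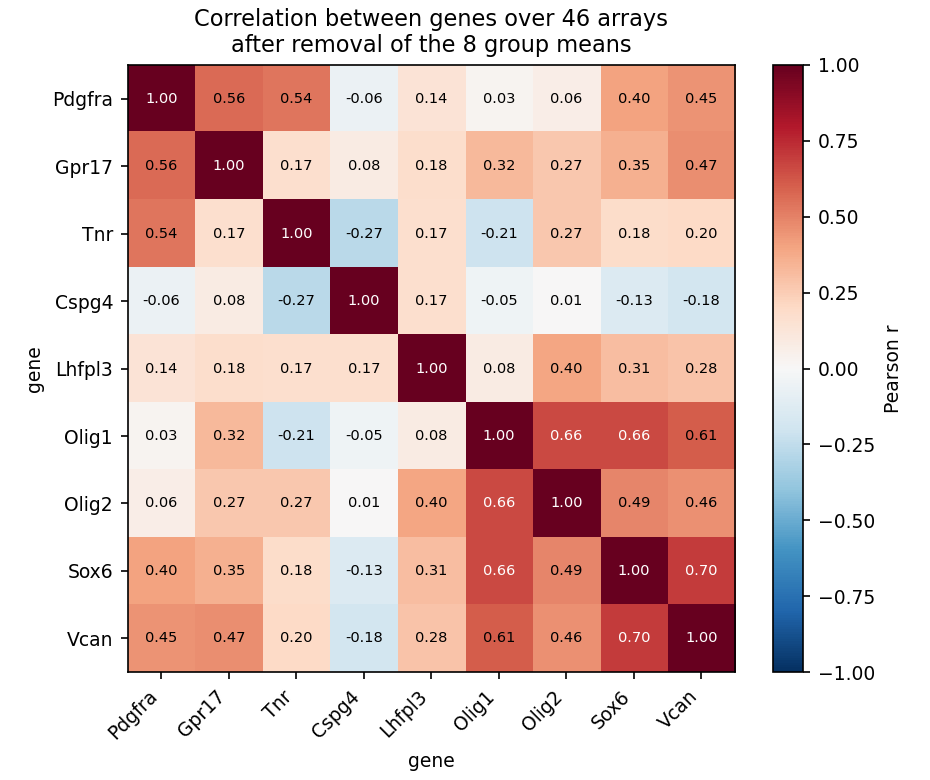
Pearson's r between the representative probesets of the 9 genes (both axes) over 46 arrays after removal of the 8 group means, with red for positive and blue for negative values. Olig1, Olig2, Sox6 and Vcan share r of 0.46 to 0.70, Pdgfra goes with Gpr17 and Tnr, and Cspg4 stays near or below 0.

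Probesets of 1 gene often disagreed. Sox6 1447655_x_at and 1434918_at had an r of 0.86, and Vcan 1427257_at and 1421694_a_at had 0.71, but the 2 Cspg4 probesets had 0.01, the 2 Lhfpl3 probesets 0.09 and the 3 Pdgfra pairs -0.18 to 0.21. The genes whose residual pattern was most like that of Gpr17, among 18192 others, were Susd5 (r = 0.71), Cytl1 (0.68), Tgfbi (0.66), Scgb1a1 (0.63) and Igf2bp3 (0.62), over 46 arrays. None of the 5 was called for CIE at 8 h or 72 h. In Ctrl mice Susd5 differed by 0.33 between 72 h and 0 h, and its Ctrl time course passed the F test (limma adjusted p = 0.00284).

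Other genes of the lineage were counted on their representatives, of which 3.09% were called at 0 h, 0.742% at 8 h, 0.687% at 72 h and 0% at 7 d over all genes. Of 22 measured of 25 further precursor genes, 0 rose and 1 fell at 0 h (Emid1, by 0.33, limma adjusted p = 0.00625), and 1 fell at 72 h (S100b, a calcium-binding protein of astrocytes and oligodendrocyte lineage cells, by 0.25, limma adjusted p = 0.00789). Of 17 measured of 18 genes of committed precursors and newly formed oligodendrocytes, the stage that Gpr17 marks, 1 rose at 0 h (Mycl, a MYC family factor, by 0.60, limma adjusted p = 1.82e-05) and none was called later. Their median difference was 0.03 at 8 h and -0.08 at 72 h, where that of Gpr17 was -0.50 and -0.48.

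Mature oligodendrocyte and myelin genes leaned lower at 72 h together with Olig1, Olig2, Sox6 and Vcan. All 17 measured of 20 had a lower mean in CIE mice, with a median of -0.30, and 2 fell: Opalin, a myelin sialoglycoprotein, by 0.39 (SE 0.084, limma adjusted p = 0.00901) and Ndrg1, by 0.31 (SE 0.064, limma adjusted p = 0.00697). The mean of the list ran from 11.26 to 11.40 in Ctrl and from 10.97 to 11.12 in CIE mice at 72 h, without overlap. At 8 h, where Gpr17 was also lower, the list's median was -0.0023, none of its genes was called, and its mean ran from 10.90 to 11.27 in Ctrl and from 10.85 to 11.29 in CIE mice. At 0 h 2 of its genes fell, Ugt8a, which makes the myelin lipid galactosylceramide, by 0.39 (limma adjusted p = 0.000575) and the factor Nkx6-2 by 0.49 (limma adjusted p = 0.000310). Over the 46 arrays the residual r of the members with this list's mean was 0.82 for Olig1, 0.69 for Sox6, 0.51 for Vcan, 0.48 for Olig2 and 0.43 for Gpr17, against 0.08 for Pdgfra, -0.01 for Cspg4 and -0.20 for Tnr. Such values were not particular to this list. Vcan had 0.67 with fibroblast and leptomeningeal markers, Olig2 0.55 with chondroitin sulfate and tenascin matrix genes, and Gpr17 0.55 with brakes on oligodendrocyte differentiation. Olig1 and Sox6 were closest to the myelin list, but Olig1 had 0.76 with the matrix genes and Sox6 0.66 with astrocyte markers. The myelin and matrix lists had the same highest CIE minus Ctrl difference, 0.25 at 0 h and 0.34 at 8 h. They thus appear to share a gene, and their r values are not independent. What part the myelin genes' shift has in the 72 h values was not tested.

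Of the PDGF ligands and receptors (5 of 5 measured, Pdgfra among them), Pdgfb, a ligand for both receptors, fell by 0.29 at 0 h (limma adjusted p = 0.00352) and Pdgfd, a ligand of the beta receptor, rose by 0.62 at 8 h (limma adjusted p = 0.00142). Pdgfra itself differed by 0.14 and 0.03 at these times. Of 12 brakes on oligodendrocyte differentiation, 3 fell at 0 h: the Notch target Hes5 by 0.90 (limma adjusted p = 4.70e-07), the receptor Notch1 by 0.34 (limma adjusted p = 8.31e-05) and its ligand Jag1 by 0.39 (limma adjusted p = 0.00523). At 8 h, of these 12, Hes5 alone was called, and it fell by 1.78 (SE 0.11, limma adjusted p = 3.89e-15), from 8.75 ± 0.142 in Ctrl to 6.98 ± 0.386 in CIE mice (SD, n = 6 each), and none was called at 72 h. Of 16 chondroitin sulfate and tenascin matrix genes, measured beside Vcan and Tnr, none was called at any time; Adamts4, a protease that cuts these proteoglycans, had the smallest p, with a difference of -0.40 at 72 h (limma adjusted p = 0.0394). Of 15 measured of 16 genes of DNA replication and cell division, Mcm5 and Ccnd1 fell at 0 h, by 0.63 (limma adjusted p = 0.00109) and 0.55 (limma adjusted p = 9.42e-06), with none called at 8 h or later.

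**Figure D5:**
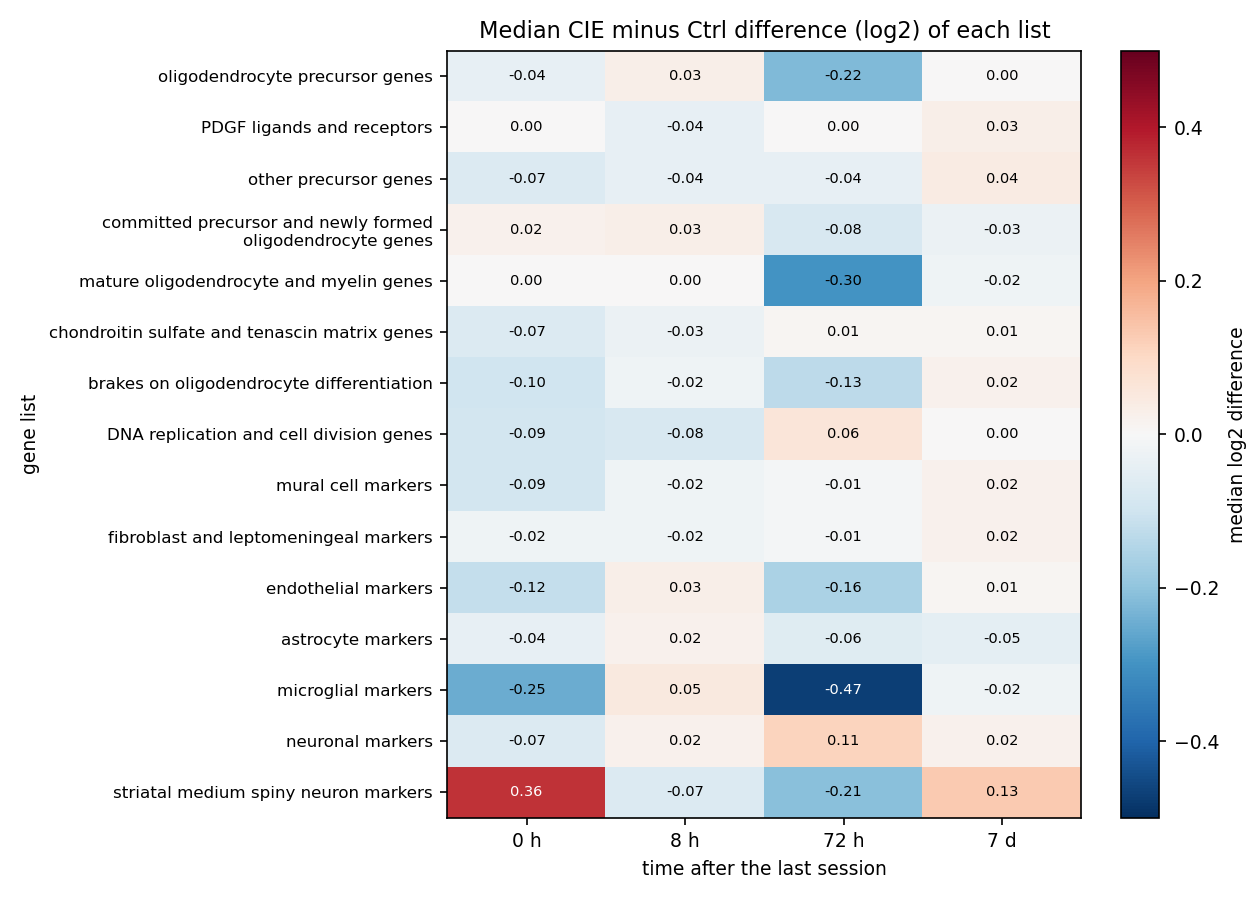
Median CIE minus Ctrl difference in log2 intensity (colour and number) of each gene list (y axis) at each time after the last session (x axis), over representative probesets. At 72 h the oligodendrocyte precursor genes stand at -0.22, mature oligodendrocyte and myelin genes at -0.30 and microglial markers at -0.47.

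Markers of other cells in the dissection were read beside these values. At 72 h, where the members leaned lower, all 9 measured of 10 microglial markers were lower in CIE mice (median -0.47), with list means of 10.02 to 10.14 in Ctrl and 9.54 to 9.88 in CIE mice, and C1qb fell by 0.51 (limma adjusted p = 0.00987). The median was 0.11 for 10 neuronal markers, -0.06 for 10 astrocyte markers and -0.16 for 9 measured of 10 endothelial markers, with none called; Gad2, a GABA-synthesis gene, had the smallest p of the neuronal list, at 0.24 (limma adjusted p = 0.0314). Mural cell markers, which share Cspg4 expression, had a median of -0.0081 at 72 h and list means of 8.06 to 8.23 in Ctrl and 8.03 to 8.20 in CIE mice. At 8 h the microglial median was 0.05, with 1 of 9 called, Fcrls, which fell by 0.86 (limma adjusted p = 1.27e-09), and the astrocyte gene Gjb6 rose by 0.47 (limma adjusted p = 0.000188). At 0 h 2 mural markers fell (Kcnj8 by 0.55 and Vtn by 0.41, limma adjusted p of 7.91e-05 and 2.15e-05) while the median of that list was -0.09. At 0 h 2 of 9 microglial markers also fell, Fcrls by 1.30 (limma adjusted p = 2.70e-15) and Gpr34 by 0.49 (limma adjusted p = 0.00227), with 8 of 9 lower and a median of -0.25. Of 9 endothelial markers at 0 h, Kdr fell by 0.40 (limma adjusted p = 0.000122), Itm2a fell by 0.31 (limma adjusted p = 0.000841) and the glucose transporter Slc2a1 rose by 0.34 (limma adjusted p = 0.000943), with a median of -0.12. For 10 fibroblast and leptomeningeal markers, which include cells that express Pdgfra, none was called at any time, and Slc6a13 had the smallest p, with 0.22 at 0 h (limma adjusted p = 0.0499).

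Striatal medium spiny neuron markers, from tissue that borders the BNST, varied widely between mice within a group. The mean of 8 measured of 10 ran from 8.95 to 10.23 in Ctrl and from 9.17 to 10.29 in CIE mice at 8 h, and from 9.50 to 10.09 in Ctrl and from 9.39 to 9.92 in CIE mice at 72 h. The median CIE minus Ctrl difference of the list was 0.36, -0.07, -0.21 and 0.13 at 0 h, 8 h, 72 h and 7 d, with none called; Rxrg had the smallest p, with 0.29 at 72 h (limma adjusted p = 0.119). The residual r of this list's mean was 0.0039 with Gpr17, -0.08 with Olig1, -0.34 with Sox6, -0.40 with Vcan and -0.55 with Lhfpl3. Its part in the differences of the last 3 genes was not tested.

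The lists were also read in the contrast in which Gpr17 rose most in Ctrl mice, 72 h against 0 h. Of their members, 1 was called in that contrast, the astrocyte glutamate transporter Slc1a3, which rose, where 0.253% of all representatives were called. The median difference was 0.01 for further precursor genes, 0.0034 for genes of committed precursors and newly formed oligodendrocytes and 0.08 for mature oligodendrocyte genes, against 0.03 over all genes and 0.88 for Gpr17. It was 0.31 for striatal medium spiny neuron markers, 0.19 for microglial markers and 0.10 for the brakes on differentiation, and -0.06 to 0.09 for the other lists.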

How the data were processed

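BNST from single mice was hybridised to Affymetrix whole-genome mouse arrays. The deposited values are log2 intensities for which the authors ran RMA on 1 hybridization batch at a time, quantile-normalized all arrays together and then applied ComBat to the batches. The sources used here do not say which array was in which batch, so no within-batch values could be computed, and any batch effect that is left enters the spread. No normalization was added.

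limma 3.58.1 in R 4.3.3 fitted 8 group means on 46 arrays (lmFit and eBayes), with CIE minus Ctrl at each time, changes of that effect, times against 0 h and F tests. p-values were adjusted over all 45037 probesets without a filter. Of these, 34945 carried 1 gene symbol, 932 several and 9160 none. Each gene's representative was its probeset with the highest mean among those with 1 symbol. Named in the text are all member probesets, list genes whose representative was called in a CIE contrast (the smallest p in a list with none), and the 5 genes most like a called member. The members and the 14 lists (182 entries) were chosen with earlier results of these data known. Scripts were tested on simulated data. Alternatives were array weights, a trended robust prior, median centring, leaving out probesets below the median mean, 2 residual components, only the arrays compared, and each array left out in turn. Each mouse is a biological replicate.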

Additional observations from a re-analysis of the deposited data

Results flagged for a closer look

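In 3 of the 72 sets of mice examined for the 9 representatives, 1 mouse stood apart from the rest of its group by Dixon's criterion, which chance meets in about 1 of 20 sets. CIE 72 h replicate 71 had the lowest Gpr17 value of its group, 9.32 against 9.48 for the next mouse; without it the difference at 72 h was -0.45 (limma adjusted p = 0.00656). Ctrl 0 h replicate 48 had the lowest Olig1 value, 11.95 against 12.40. CIE 7 d replicate 59 had the lowest Olig2 value, 9.39 against 9.59 for the next of the 4 mice.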

How the results depend on the processing

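With only the arrays of the groups compared, 0 members were called at 8 h, and with only the Ctrl arrays 3 were called in the Ctrl time course. The counts over all probesets in these restricted fits are not given here. The lower numbers are therefore not read as particular to the members. Array weights gave 4 members called at 72 h (Gpr17, Olig1 and 2 Vcan probesets), 4 in the F test over the 4 effects and 2 in the change of effect (Gpr17 and Vcan). Over all probesets these calls rose from 195 to 1151, from 1280 to 2481 and from 467 to 942. With 2 residual components as covariates the counts were 4 at 72 h (Gpr17, Olig1, Vcan and Sox6), 4 over the 4 effects, 3 for the change, 10 in the Ctrl and 4 in the CIE time course. Over all probesets those counts were 1123, 3865, 1546, 10664 and 7523, where the main fit gave 195, 1280, 467, 4921 and 3497. Leaving out 1 mouse at a time gave 1 to 2 members over the 4 effects, 0 to 1 for the change and 3 to 9 in the Ctrl time course. For these F tests the counts over all probesets are not given here. The second call over the 4 effects was Olig1 without Ctrl 0 h replicate 48 and Vcan without CIE 72 h replicate 63, and the call for the change was Gpr17 without CIE 0 h replicate 19 and Vcan without CIE 72 h replicate 63. The cause of these shifts was not tested. A trended robust prior, median centring and leaving out probesets below the median mean kept every count of members within 1.5 times. Of 686 alternative values for 9 genes at 4 times, in which a gene's other probesets and the mice of the time compared were among the choices, 681 kept their direction or their lack of a call, 1 lost and 4 gained a call, and none reversed; 54 changed sign without a call in either fit. The background counts were less stable: over all probesets, 28 to 375 were called at 72 h when 1 mouse was left out, the lowest without Ctrl 72 h replicate 68, against 195, and 162 to 290 at 8 h against 251. No paired analysis was possible because the groups share no replicate numbers.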
